A study of Mus musculus with 15 samples.

Results

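Mitochondrial ribosomal protein genes are the nuclear genes that encode the protein part of the ribosome inside mitochondria. Members were the symbols in the RNA count files made of Mrpl (large subunit) or Mrps (small subunit) followed by a number and at most 1 letter. The rule found 76 of the 19069 genes, 47 with an Mrpl and 29 with an Mrps symbol. Each of the 76 passed the low-count filter, so no member was left out of the RNA test, and each had a row in both promoter tables.

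The mitochondrial ribosome translates the messages of mitochondrial DNA, which encode core subunits of the respiratory chain complexes and of ATP synthase. Its RNAs are transcribed in the organelle, whereas all of its proteins are made in the cytosol from nuclear genes and imported. Some of these proteins have counterparts in bacterial ribosomes and others occur only in mitochondria. NRF1, the ETS-family factor GABP and YY1 are known regulators of nuclear genes for mitochondrial proteins.

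The cells were NIH3T3, an established line of mouse embryonic fibroblasts. The irradiated group received 80 J/m2 of UV-C at 254 nm after washing and removal of the medium, and was then kept for 6 h in fresh medium with DMSO at 1:2000. For the untreated group no wash, medium change or DMSO is stated, so radiation and these handling steps cannot be told apart. RNA-seq had 3 UV and 3 untreated libraries. FAIRE-seq, which recovers DNA that is not crosslinked to nucleosomes, and ChIP-seq for H3K27ac, a histone mark of active promoters and enhancers, had 2 UV and 2 untreated samples each, with 1 input DNA sample. The labels do not say whether replicates were separate cultures, so a p-value measures only the spread between these libraries.

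RNA libraries held 14211528 to 20136117 counts in UV and 18183266 to 22032701 in untreated cells. Levels are given as CPM, read counts relative to library size, with TMM scaling except for the markers, which were scaled to library totals. All 12 fibroblast markers were at 10 CPM or above in every library, and the summed levels of markers of 5 other cell types lay between 1.04 and 18.2 CPM. UV replicate 1 stood apart, with a TMM factor of 0.803 against 0.932 to 1.19 in the other 5 libraries and 17607 genes detected against 18350 to 18787. RNA was measured in bulk, so fewer cells of a type and less RNA per cell cannot be told apart.

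After UV, 23 of the 76 mitochondrial ribosomal protein genes rose and 6 fell at an adjusted p below 0.05 (edgeR quasi-likelihood test, Benjamini-Hochberg over 14925 genes), and 47 did not pass the test. Of all genes tested, 7.70% rose and 12.4% fell, against 30.3% and 7.89% of the members. The members' median log2 fold change was 0.18, against -0.01 for all genes, and the values ran from -1.75 to 0.93. In 31 members every UV library lay above every untreated one, and in 11 every UV library lay below. These separations occurred in 16.6% and 17.3% of all genes. The plot of ranked fold changes shows a short steep lower tail and a long flat upper arm in which no member reached a 2-fold change.

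**Figure D1:**
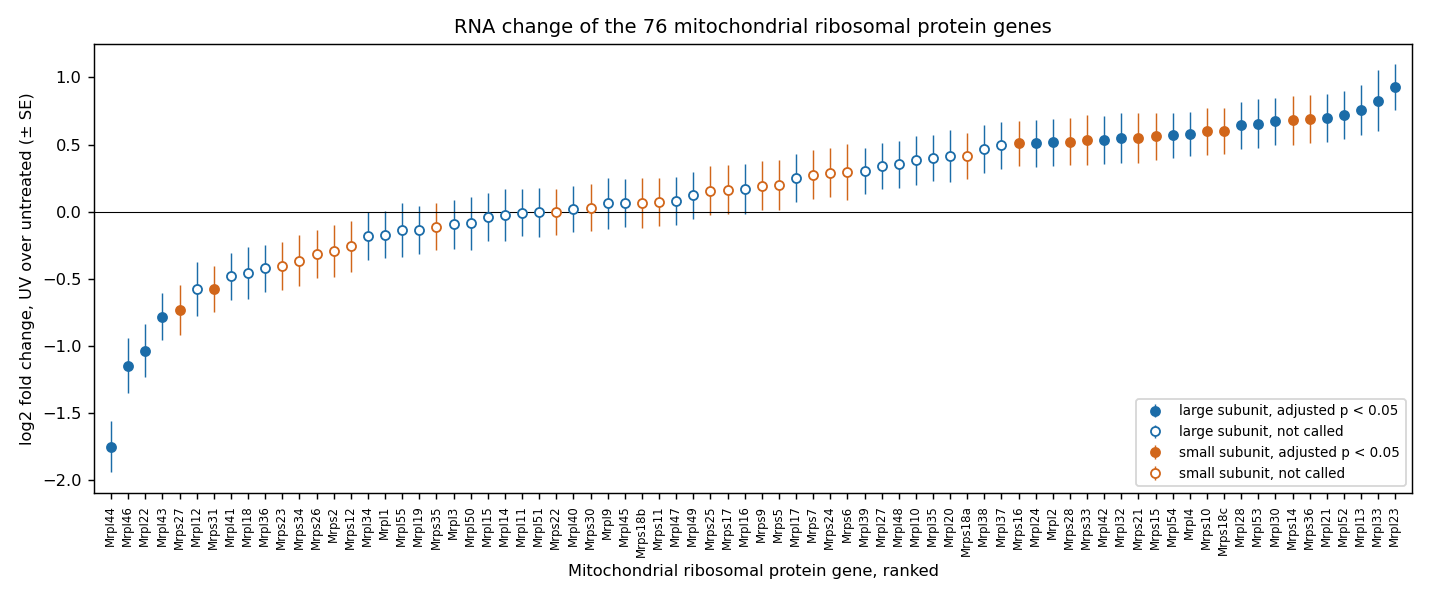
Log2 fold change of RNA, UV over untreated, for each of the 76 genes in rank order, with the standard error as a vertical line and n = 3 libraries per group. Blue marks the large and orange the small subunit, and filled points passed an adjusted p of 0.05 (edgeR): the values run from -1.75 for Mrpl44 to 0.93 for Mrpl23.

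Rises reached 0.93 on the log2 scale and falls reached -1.75, and both counts depended on scaling and on single libraries. With library totals in place of TMM scaling, 14 members rose, 21 fell and the members' median was -0.059, while the median of all genes moved to -0.24. Of all genes 6.06% rose and 25.1% fell in that fit, against 18.4% and 27.6% of the members, so the share that fell was near that of all genes. The share of all counts taken by the members was 0.267%, 0.289% and 0.267% in UV libraries, against 0.271%, 0.290% and 0.271% in untreated libraries. The members' combined share of RNA therefore overlapped between the groups. Without UV replicate 1, 19 members rose and 12 fell, with a median of 0.028 against 0.053 for all genes, of which 7.62% rose and 18.3% fell. Without UV replicate 3, 4 members rose and 3 fell (5.26% and 3.95%), near the 3.75% and 7.31% of all genes. Mrpl13, Mrpl23, Mrpl33 and Mrps36 (4 of the 23) rose, and Mrpl44, Mrpl46 and Mrpl22 (3 of the 6) fell, in the main fit, with library totals and whichever 1 library was left out.

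The 6 genes that fell were 4 of the large subunit (Mrpl44, Mrpl46, Mrpl22 and Mrpl43) and 2 of the small subunit (Mrps27 and Mrps31). Mrpl22, whose bacterial counterpart lines the tunnel through which the new protein leaves, was the only one of the 6 with a counterpart in bacterial ribosomes, and the other 5 belong to the proteins specific to mitochondria.

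Mrpl44, a protein with an RNase III-like fold, had 8.29, 7.34 and 8.28 CPM in UV libraries and 23.8, 32.8 and 23.8 CPM in untreated libraries. All UV libraries lay below all untreated ones, and the UV values lay close together. Its log2 fold change was -1.75 ± 0.19 (SE, edgeR adjusted p = 5.62e-06), at percentile 0.918 of all genes tested. Mrpl44 overlaps Wdfy1 in the RefSeq annotation and the counting is not stated to use strand. Wdfy1 itself did not pass the test, with a log2 fold change of 0.01 (adjusted p = 0.994).

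Mrpl46 had 11.2, 7.61 and 8.46 CPM in UV libraries, against 17.9, 24.2 and 18.3 CPM in untreated libraries. The groups did not overlap, and the log2 fold change was -1.15 ± 0.20 (edgeR adjusted p = 0.000522). Mrpl22 had 14.5, 10.6 and 10.3 CPM in UV libraries, against 23.6, 28.4 and 20.4 CPM in untreated libraries, again with a clear gap. It fell by 1.04 ± 0.20 on the log2 scale (edgeR adjusted p = 0.00097).

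Mrpl43 had 24.4, 17.6 and 18.8 CPM in UV libraries, against 34.2, 36.3 and 34.1 CPM in untreated libraries. UV replicate 1 was the nearest to the untreated libraries, which were close together, and the log2 fold change was -0.78 ± 0.18 (edgeR adjusted p = 0.00394). Mrps27, an RNA-binding protein of the pentatricopeptide repeat family, had 12.7, 11.8 and 10.3 CPM in UV libraries and 17.7, 22.7 and 17.3 CPM in untreated libraries. The log2 fold change was -0.73 ± 0.19 (edgeR adjusted p = 0.0083), with no overlap. Mrps31 had 17.9, 14.5 and 15.1 CPM in UV libraries and 22.8, 24.98 and 22.97 CPM in untreated libraries, a log2 fold change of -0.57 ± 0.17 (edgeR adjusted p = 0.023). Without UV replicate 3, the adjusted p was 0.0503 for Mrpl43, 0.0926 for Mrps27 and 0.193 for Mrps31. Without untreated replicate 2, it was 0.0743 for Mrps27 and 0.0724 for Mrps31. Mrps31 also missed the threshold without UV replicate 2 (edgeR adjusted p = 0.0854) and without untreated replicate 1 (0.0508).

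**Figure D2:**
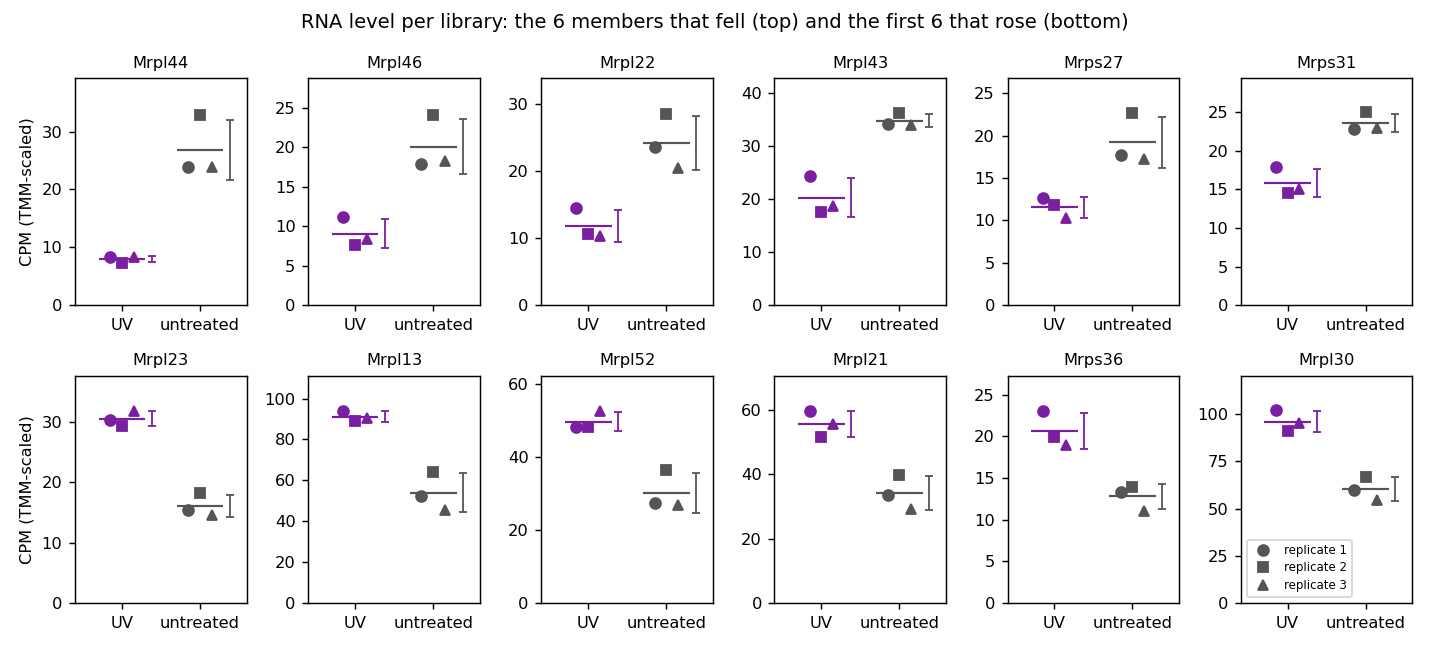
TMM-scaled CPM in each RNA library for the 6 genes that fell (top) and the first 6 of those that rose by p (bottom), with UV on the left and untreated on the right of each panel. Horizontal lines are means, brackets the SD (n = 3), marker shapes the replicate number, and in all 12 panels the groups do not overlap.

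The promoters of Mrpl44, Mrpl46 and Mrpl43 are printed for genes that fell, and that of Mrps11 because it lies head to head with Mrpl46. They come from RefSeq (GRCm38.p6), run 5′ to 3′ on the gene's strand, and cover 250 bases before to 50 after the annotated start. Capitals mark matches, on either strand, to 4 motifs: CCGGAAG (ETS family), AAGATGGC (YY1), GCATGCGC (the core of the NRF1 site) and GGGCGG (SP1). No 2 marked matches overlapped. The windows are chr1:79775768-79776067 (+ strand), chr7:78783040-78783339 (- strand), chr7:78782881-78783180 (+ strand) and chr19:45006393-45006692 (- strand).
Mrpl44: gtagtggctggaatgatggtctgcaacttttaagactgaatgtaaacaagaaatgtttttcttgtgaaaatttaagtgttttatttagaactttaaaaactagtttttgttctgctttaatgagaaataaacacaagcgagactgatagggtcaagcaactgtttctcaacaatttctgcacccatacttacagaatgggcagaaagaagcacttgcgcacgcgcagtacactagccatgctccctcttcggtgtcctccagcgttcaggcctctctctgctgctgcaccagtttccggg
Mrpl46: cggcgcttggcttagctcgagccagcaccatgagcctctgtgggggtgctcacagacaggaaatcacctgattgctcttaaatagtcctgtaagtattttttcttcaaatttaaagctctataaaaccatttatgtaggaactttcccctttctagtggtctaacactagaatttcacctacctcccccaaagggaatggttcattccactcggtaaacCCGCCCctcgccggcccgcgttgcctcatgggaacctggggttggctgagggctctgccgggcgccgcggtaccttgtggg
Mrps11: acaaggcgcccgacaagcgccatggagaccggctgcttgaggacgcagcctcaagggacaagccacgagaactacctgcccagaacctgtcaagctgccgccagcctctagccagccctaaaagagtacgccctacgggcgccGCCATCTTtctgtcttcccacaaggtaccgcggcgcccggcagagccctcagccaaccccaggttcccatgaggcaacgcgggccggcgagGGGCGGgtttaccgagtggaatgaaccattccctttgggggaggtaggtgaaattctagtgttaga
Mrpl43: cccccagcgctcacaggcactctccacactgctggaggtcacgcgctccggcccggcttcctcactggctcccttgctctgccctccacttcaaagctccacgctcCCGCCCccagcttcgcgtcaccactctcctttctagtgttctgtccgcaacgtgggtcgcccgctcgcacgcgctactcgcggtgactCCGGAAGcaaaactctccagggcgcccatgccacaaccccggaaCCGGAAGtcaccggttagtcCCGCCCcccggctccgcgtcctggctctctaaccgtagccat
The Mrpl44 window held no exact match to any of the 4 motifs, and variants of these sites were not searched. The Mrpl46 and Mrps11 windows share 141 bases, and the 1 SP1 match of each is the same site read from the opposite side. Mrps11 also held a YY1 match. Mrpl43 held 2 ETS matches, which begin at -56 and -12 from the start, and 2 SP1 matches.

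Mrpl46 and Mrps11 start 42 bp apart on opposite strands, yet their RNAs did not move together. Mrps11, a small-subunit protein with a bacterial counterpart, had 32.4, 26.9 and 24.5 CPM in UV libraries and 23.6, 28.8 and 27.3 CPM in untreated libraries. The groups overlapped, and the log2 fold change was 0.07 ± 0.18 (edgeR adjusted p = 0.920). The ratio of Mrpl46 to Mrps11 counts, in which library size cancels, was 0.346, 0.282 and 0.345 in UV libraries, against 0.757, 0.839 and 0.673 in untreated libraries. All UV ratios lay below all untreated ratios.

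Such head-to-head starts, at most 500 bp apart, were found for 22 of the 67 members with a RefSeq promoter entry, in 19 pairs with both genes tested (Mrpl46 and Mrps11 counted once). Both genes fell in 1 pair and rose in none. Of the 19 partners 2 rose and 5 fell, against 7.70% and 12.4% of all genes. In the pair where both fell, the partner of Mrpl43 was Peo1, the mitochondrial DNA helicase Twinkle, with 21.7, 13.3 and 17.1 CPM in UV libraries and 28.1, 26.3 and 25.8 CPM in untreated libraries. Its log2 fold change was -0.62 ± 0.19 (edgeR adjusted p = 0.0256). RefSeq has the 2 genes overlap, as it does 24 of the 76 members with some other gene. The overlap was taken between whole gene spans, and whether exons are shared was not examined. If strand was not used, reads from any shared stretch cannot be told apart.

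The pair Mrpl30 and Mitd1 changed in opposite directions. Mrpl30 rose by 0.67 ± 0.18 on the log2 scale (edgeR adjusted p = 0.0113). Mitd1, a protein that acts at the end of cell division, had 9.22, 5.32 and 5.50 CPM in UV libraries and 14.5, 14.8 and 12.8 CPM in untreated libraries, a log2 fold change of -1.07 ± 0.22 (edgeR adjusted p = 0.0022). In 5 further pairs only the partner passed the test, and whether the genes of a pair differed was not tested. The partners Eme1 (beside Mrpl27), Gga3 (beside Mrps7) and Zfp189 (beside Mrpl50) fell, with log2 fold changes of -1.37, -1.03 and -0.80 and edgeR adjusted p of 0.000126, 0.00129 and 0.011; Eme1 and Gga3 overlap their neighbours in RefSeq. Fau (beside Mrpl49), which encodes a cytosolic ribosomal protein, and the complex I subunit Ndufb5 (beside Mrpl47) rose by 1.11 and 0.84 (edgeR adjusted p = 0.000917 and 0.00337).

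**Figure D3:**
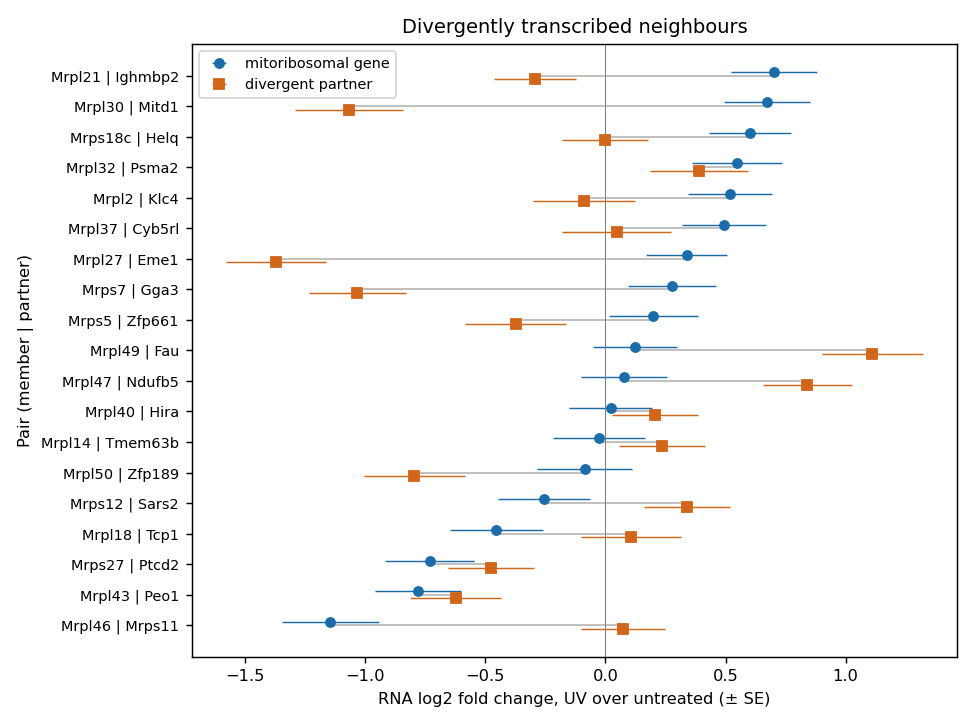
Log2 fold change of RNA, UV over untreated, for the mitochondrial ribosomal gene (blue circle) and its head-to-head partner (orange square) in 19 pairs, with the standard error (n = 3 libraries per group) and a grey line that joins a pair. For Mrpl46 and Mrps11 the values are -1.15 and 0.07, and for Mrpl43 and Peo1 they are -0.78 and -0.62.

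Among the 23 genes that rose, 14 carry an Mrpl (large subunit) and 9 an Mrps (small subunit) symbol. Mrpl23, whose bacterial counterpart sits at the exit of the protein tunnel, had 30.4, 29.4 and 31.9 CPM in UV libraries, against 15.5, 18.2 and 14.5 CPM in untreated libraries. The UV libraries lay far above the untreated ones, with a log2 fold change of 0.93 ± 0.17 (edgeR adjusted p = 0.000745). RefSeq lists a pseudogene of Mrpl23 and 3 of Mrps36, and how reads shared with such copies were counted is not given in the sources used here.

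Mrpl13 had 94.0, 88.8 and 90.7 CPM in UV libraries and 52.1, 64.3 and 45.4 CPM in untreated libraries. All UV libraries were above, and the log2 fold change was 0.76 ± 0.19 (edgeR adjusted p = 0.00656). Mrpl33, another large-subunit protein with a bacterial counterpart, had 87.5, 55.0 and 58.3 CPM in UV libraries and 48.5, 37.3 and 27.6 CPM in untreated libraries. UV replicate 1 was far above the other 2 UV libraries, and the log2 fold change was 0.83 ± 0.23 (edgeR adjusted p = 0.0139). Mrps36 had 23.1, 19.9 and 18.9 CPM in UV libraries and 13.3, 13.97 and 11.1 CPM in untreated libraries. It rose by 0.69 ± 0.18 (edgeR adjusted p = 0.00967), with no overlap; its product is now known as a component of the 2-oxoglutarate dehydrogenase complex rather than of the ribosome.

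Mrpl52, specific to mitochondria, rose by 0.72 (edgeR adjusted p = 0.00759), with 48.1, 48.2 and 52.6 CPM in UV libraries and 27.3, 36.4 and 26.7 CPM in untreated libraries. Mrpl21 rose by 0.70 (edgeR adjusted p = 0.00881), with 59.8, 51.6 and 55.6 CPM in UV libraries and 33.7, 39.8 and 29.3 CPM in untreated libraries. Neither gene showed any overlap between the groups. Log2 fold changes between 0.56 and 0.68 were found for Mrps14, Mrpl28, Mrpl53, Mrps18c, Mrpl4, Mrps10, Mrpl54 and Mrps15, with edgeR adjusted p between 0.0134 and 0.0293. Mrpl4 encodes another protein of the exit tunnel, and Mrps10, Mrps14 and Mrps15 encode small-subunit proteins with bacterial counterparts. The other 8 that rose were Mrpl2, Mrpl24, Mrpl32, Mrpl42, Mrps16, Mrps21, Mrps28 and Mrps33, with log2 fold changes between 0.51 and 0.55 and edgeR adjusted p between 0.0366 and 0.0488.

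By origin, 17 of 46 members with a bacterial counterpart rose and 1 fell (median log2 fold change 0.28), while 6 of 30 members specific to mitochondria rose and 5 fell (median 0.05). The 6 that rose include Mrps36, whose product is now placed outside the ribosome. The difference between these classes was not tested. By symbol, the large subunit had 14 higher and 4 lower of 47 (median 0.17) and the small subunit 9 higher and 2 lower of 29 (median 0.19). With library totals, the classes had 11 higher and 10 lower with a bacterial counterpart, and 3 higher and 11 lower among those specific to mitochondria. Without UV replicate 3 they had 3 higher and 1 lower, and 1 higher and 2 lower. Of all genes, 6.06% rose and 25.1% fell with library totals, and 3.75% rose and 7.31% fell without UV replicate 3.

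Among the 47 members that did not pass, the largest changes were in Mrpl12, Mrpl37 and Mrpl41. Mrpl12, a protein of the ribosomal stalk that also binds the mitochondrial RNA polymerase, had 48.4, 33.9 and 31.4 CPM in UV libraries and 58.0, 64.4 and 47.0 CPM in untreated libraries. UV replicate 1 overlapped with the untreated libraries, and the log2 fold change was -0.58 ± 0.20 (edgeR adjusted p = 0.051). It passed, for example, without UV replicate 1 and with library totals. Mrpl37 was at 0.49 ± 0.17 (edgeR adjusted p = 0.0542) and Mrpl41 at -0.48 ± 0.18 (edgeR adjusted p = 0.066), both with no overlap between the groups. Mrpl51 had 89.6, 67.6 and 75.99 CPM in UV libraries and 79.4, 84.8 and 69.7 CPM in untreated libraries, which overlapped fully (log2 fold change -0.00 ± 0.18).

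The 3 paralogs of bacterial protein S18 had different values. Mrps18c, the one that occupies the bacterial position, had 42.7, 37.9 and 39.5 CPM in UV libraries and 25.9, 30.0 and 23.3 CPM in untreated libraries and rose by 0.60 ± 0.17 (edgeR adjusted p = 0.018). Mrps18a, now placed in the large subunit, had 40.5, 40.1 and 37.8 CPM in UV libraries and 28.2, 34.6 and 26.0 CPM in untreated libraries. Its groups did not overlap, but the log2 fold change of 0.41 ± 0.17 did not pass (edgeR adjusted p = 0.109). Mrps18b had 56.2, 41.6 and 40.2 CPM in UV libraries and 46.6, 46.2 and 39.2 CPM in untreated libraries, with overlap and a log2 fold change of 0.07 ± 0.18 (edgeR adjusted p = 0.938). Whether the 3 changes differed from each other was not tested.

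The authors' deposited table of the same comparison lists 2068 genes, of which 13 are members, 9 higher and 4 lower in UV, with the direction taken from the order in which the table names the times. The table runs to an adjusted p of 0.0999, and 6 of the 13 are below 0.05 in it. All 13 passed here at 0.05 in the same direction. In the authors' deposited table the log2 fold change was -1.75 for Mrpl44, -1.14 for Mrpl46, -1.03 for Mrpl22 and 0.93 for Mrpl23.

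The promoter tables give 1 value per condition, from replicates pooled by the authors, so promoter differences have no replicate check and no test. A value is the log2 of reads over scaled input reads in 1000 bp, with 16 reads added to each, and intervals of read ratios are exact binomial 95% intervals that cover counting error only. The columns read as UV are headed DMSO and were taken as UV because the irradiated cells received DMSO. UV columns held 637080 promoter reads for FAIRE, against 1032412 in untreated, and 4447997 for H3K27ac, against 4015279. Head-to-head genes share part of their windows, so their values are not independent.

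FAIRE enrichment was lower in UV at 69 of the 76 promoters, with a median of 0.92 in UV and 1.27 in untreated cells and a median difference of -0.36. It was lower at 68.0% of all promoters, 76.7% of those of genes tested for RNA and 89.9% of the 50% with the most enrichment, among which all 76 lie. The members' share of 90.8% is near that last share. All 21881 promoters had a median difference of -0.17, those of genes tested for RNA -0.27, and the 50% of promoters with the most enrichment -0.40. Of the members, 0 gained and 0 lost 1 or more on the log2 scale, against 0.00457% and 1.05% of all promoters and 0.00670% and 1.39% of those of genes tested for RNA. Mrpl34, a large-subunit protein with a bacterial counterpart, had the largest loss, with 92 reads in UV and 194 in untreated cells. Its enrichment was 1.58 in UV and 2.36 in untreated cells, a difference of -0.77, and the depth-scaled read ratio was 0.591 (interval 0.456 to 0.761). Mrps26 followed at -0.72 (36 reads in UV, 80 in untreated) and Mrps24 at -0.65 (23 and 53 reads). The RNA of none of these 3 genes passed the test.

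FAIRE was higher in UV at Mrpl13, whose RNA also rose, with 58 reads in UV and 45 in untreated cells. The difference was 0.45, and the read ratio of 1.61 had an interval of 1.07 to 2.43. Mrps18a had 44 reads in UV and 37 in untreated cells, a difference of 0.36, and Mrps21 had 28 and 26 reads, a difference of 0.21. The intervals of these 2 ratios included 1. Enrichment was highest at Mrpl51, Mrps12 and Mrps18b and lowest at Mrpl23, Mrpl3 and Mrps21, and the members' range was 0.13 to 2.35 in UV and 0.42 to 2.78 in untreated cells.

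H3K27ac was higher in UV at 52 of the 76 promoters and lower at 24, with a median of 3.32 in UV and 3.09 in untreated cells. It was higher at 41.7% of all promoters, 43.8% of those of genes tested for RNA and 52.3% of the 50% with the most enrichment, against 68.4% of the members. The median difference was 0.28, against -0.01 for all promoters, -0.06 for those of genes tested for RNA and 0.04 for the 50% with the most enrichment. H3K27ac was also higher at 67.9% of 84 cytosolic ribosomal protein promoters (median 0.20) and 61.9% of 42 complex I promoters (median 0.12). A high share was therefore not particular to the members. On the log2 scale 2 members gained and 3 lost at least 1, against 2.38% and 3.43% of all promoters and 2.93% and 4.26% of those of genes tested for RNA, so the shares past that size were near the background. After centring on all promoters 2 lost (Mrpl42 no longer), against 3.22% of all promoters. With 1 read added or no input term 3 members gained and 3 lost. Of all promoters 6.31% gained and 15.9% lost with 1 read added, and 6.26% and 15.9% with no input term. The plot of promoter differences shows the members' H3K27ac values mostly above 0, with 3 large-subunit genes far below.

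**Figure D4:**
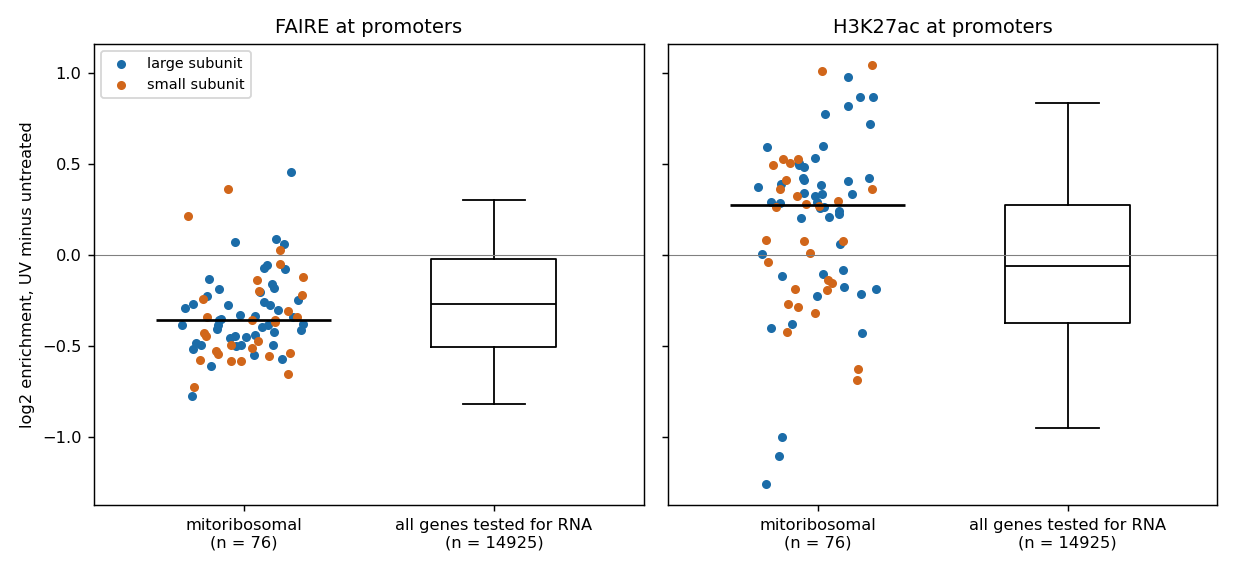
Difference in log2 enrichment at promoters, UV minus untreated, for FAIRE (left) and H3K27ac (right), with 1 point per mitochondrial ribosomal gene (blue large, orange small subunit; line, median) beside a box plot of all 14925 genes tested for RNA (box, quartiles; whiskers, 5th to 95th percentile). The members' medians are -0.36 for FAIRE and 0.28 for H3K27ac, against -0.27 and -0.06 for all genes tested.

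Mrpl23 had the largest H3K27ac loss of the members, although its RNA rose. Its promoter held 88 reads in UV and 232 in untreated cells, the enrichment was 1.56 in UV and 2.82 in untreated cells, and the difference was -1.26. The depth-scaled read ratio was 0.376 (interval 0.291 to 0.483). Mrpl42 combined a loss of acetylation, with 92 reads in UV, 199 in untreated cells and a difference of -1.002, with RNA that rose. Mrpl34 had 110 reads in UV and 253 in untreated cells, a difference of -1.10, so both chromatin measures were lower there in UV. Its RNA was 13.9, 11.5 and 12.5 CPM in UV libraries and 13.9, 15.7 and 13.4 CPM in untreated libraries (log2 fold change -0.18, edgeR adjusted p = 0.627).

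Mrps18a had the largest H3K27ac gain, with 512 reads in UV and 239 in untreated cells. Its enrichment was 3.67 in UV and 2.62 in untreated cells, a difference of 1.04, and the read ratio was 2.12 (interval 1.82 to 2.49). Mrps9, a small-subunit protein with a bacterial counterpart, had 259 reads in UV and 120 in untreated cells, a difference of 1.01. Mrpl3, a large-subunit protein with a bacterial counterpart, had 243 reads in UV and 115 in untreated cells, a difference of 0.98. The RNA of these 3 genes did not pass the test, at log2 fold changes of 0.41, 0.19 and -0.09. Enrichment was highest at Mrpl51, Mrps18b and Mrps7 and lowest at Mrpl24, Mrpl42 and Mrps22.

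The promoters of Mrpl23, Mrpl34 and Mrps18a are printed for the largest acetylation loss, lower values of both chromatin measures in UV, and higher values of both. The FAIRE differences of Mrpl34 and Mrps18a were below 1 in size, and the interval of the Mrps18a FAIRE ratio included 1. They come from RefSeq (GRCm38.p6), with capitals as above. The windows are chr7:142532782-142533081, chr8:71464676-71464975 and chr17:46110754-46111053, all on the + strand.
Mrpl23: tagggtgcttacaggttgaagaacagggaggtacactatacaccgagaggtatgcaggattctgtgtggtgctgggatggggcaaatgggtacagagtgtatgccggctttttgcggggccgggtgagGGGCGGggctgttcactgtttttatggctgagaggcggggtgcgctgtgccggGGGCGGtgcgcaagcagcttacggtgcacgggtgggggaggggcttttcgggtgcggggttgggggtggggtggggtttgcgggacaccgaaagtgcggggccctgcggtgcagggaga
Mrpl34: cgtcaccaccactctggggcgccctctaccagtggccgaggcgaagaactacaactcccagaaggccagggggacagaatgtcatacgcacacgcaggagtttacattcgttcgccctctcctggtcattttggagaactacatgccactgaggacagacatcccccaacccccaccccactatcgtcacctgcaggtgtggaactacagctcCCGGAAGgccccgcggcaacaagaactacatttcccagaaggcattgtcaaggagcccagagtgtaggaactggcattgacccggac
Mrps18a: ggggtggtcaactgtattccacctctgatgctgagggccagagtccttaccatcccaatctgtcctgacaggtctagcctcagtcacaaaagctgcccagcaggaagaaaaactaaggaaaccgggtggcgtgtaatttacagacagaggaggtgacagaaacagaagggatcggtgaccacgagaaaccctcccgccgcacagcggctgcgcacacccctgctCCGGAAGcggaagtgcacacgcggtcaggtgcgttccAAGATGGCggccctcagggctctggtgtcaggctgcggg
Mrpl23 held 2 SP1 matches, Mrpl34 an ETS match and Mrps18a an ETS and a YY1 match.

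Promoter acetylation and RNA showed no common order across the members. Pearson's r across the 76 genes was 0.05 (Spearman's rho 0.06) between the RNA and the H3K27ac difference, and 0.10 (rho 0.03) between RNA and FAIRE. Between the H3K27ac and FAIRE differences r was 0.14 (rho 0.08). Genes share libraries and are not independent replicates, so these values are a description. H3K27ac was higher in UV at 14 of the 23 genes whose RNA rose, at 3 of the 6 whose RNA fell and at 35 of the 47 others. Mrpl46 and Mrpl22 fell in RNA with H3K27ac differences of 0.34 and 0.38, while Mrps27 fell with -0.63 and Mrpl44 with -0.18.

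**Figure D5:**
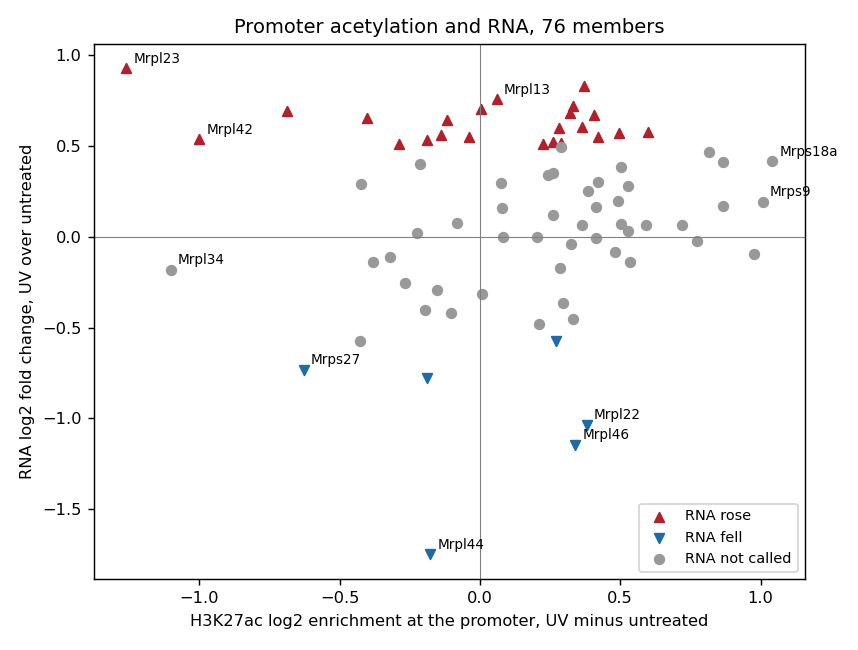
RNA log2 fold change (UV over untreated, 3 libraries per group) against the difference in promoter H3K27ac log2 enrichment (UV minus untreated, pooled) for the 76 genes. Red triangles rose and blue triangles fell in RNA, and grey points did not pass: Mrpl23 combines 0.93 in RNA with -1.26 in H3K27ac, and Mrpl44 combines -1.75 with -0.18.

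Motifs of the known regulators were counted in the RefSeq promoter windows of the 67 matched members, on both strands. Only exact matches to the letters given were counted, so variants of a site are left out. The ETS motif CCGGAAG was in 23 members (34.3%), against 14.96% of 11085 windows of genes tested for RNA and 9.12% of all 27025 windows. AAGATGGC (YY1) was in 12 members (17.9%), against 3.98% of tested genes and 2.88% of all. GCATGCGC (NRF1 core) was in 8 members (11.9%), against 4.63% of tested genes and 2.80% of all. The SP1 motif GGGCGG was in 33 members (49.3%), against 58.4% of tested genes, and TATAAA in 4 (5.97%), against 8.50%. CCAAT was in 27 (40.3%), against 38.2%. By RNA call, the ETS motif was in 8 of the 19 matched genes that rose, 3 of 6 that fell and 12 of the 42 others. In the same order, the YY1 motif was in 2, 1 and 9 genes and the NRF1 core in 2, 1 and 5. The SP1 motif was in 10, 2 and 21, CCAAT in 10, 1 and 16, and TATAAA in 0, 1 and 3. Differences between the call groups were not tested.

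RNA of the regulators and of the machinery around the mitochondrial ribosome was read from lists fixed for the pathway. The shares to set beside the counts are 7.70% higher and 12.4% lower of all genes in the main fit and 6.06% and 25.1% with library totals. They are 7.62% and 18.3% without UV replicate 1, 9.12% and 9.56% without UV replicate 2, and 3.75% and 7.31% without UV replicate 3. Without untreated replicate 1 they are 11.5% and 9.68%, and without untreated replicate 2 they are 12.5% and 7.49%. Of the 14 genes on the regulator list 0 rose and 4 fell (28.6%, median log2 fold change -0.26). Nrf1 had 34.0, 26.3 and 27.6 CPM in UV libraries and 69.4, 64.7 and 53.9 CPM in untreated libraries, all UV libraries far below, with a log2 fold change of -1.10 ± 0.18 (edgeR adjusted p = 0.000336). Yy1 and the GABP subunit gene Gabpb1 fell by 0.59 and 0.54 (edgeR adjusted p = 0.0331 and 0.0316). Tfb1m, the rRNA dimethyltransferase of mitochondria, fell by 1.12 (edgeR adjusted p = 0.00631). It is on the regulator list but is not itself a regulator of nuclear genes, and it is counted again on the assembly list. Tfb2m, which did not pass, is likewise also on the list for mitochondrial DNA transcription and replication. Of the 14 genes on the regulator list 8 fell with library totals, 7 without UV replicate 1, and 2 without UV replicate 2 or untreated replicate 1. Without UV replicate 3 or untreated replicate 2, 1 of the 14 fell, near the share of all genes in those fits.

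Of 24 assembly and rRNA factors 1 rose and 7 fell (29.2%; median -0.32). Rpusd4, a pseudouridine synthase that acts on mitochondrial rRNA, had 6.37, 3.97 and 5.91 CPM in UV libraries and 14.2, 19.0 and 14.9 CPM in untreated libraries. The groups were far apart, with a log2 fold change of -1.56 ± 0.22 (edgeR adjusted p = 6.03e-05). The rRNA methyltransferase Ftsj2, the helicase Ddx28 and the pseudouridine synthase Trub2 fell, with log2 fold changes of -1.62, -1.003 and -0.92 (edgeR adjusted p = 0.00144, 0.00094 and 0.000999). The gene that rose was Mterfd2, at 0.91 (edgeR adjusted p = 0.0124). With library totals 0 rose and 13 fell, without UV replicate 1 it was 1 and 11, without UV replicate 3 it was 0 and 4, and without untreated replicate 2 it was 2 and 4.

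Of 12 genes for transcription and replication of mitochondrial DNA 0 rose and 4 fell (33.3%; median -0.10). Tfam, which packages mitochondrial DNA and starts its transcription, had 45.9, 30.4 and 38.1 CPM in UV libraries and 77.9, 85.1 and 66.2 CPM in untreated libraries, with no overlap. Its log2 fold change was -1.0005 ± 0.19 (edgeR adjusted p = 0.00122). The mitochondrial RNA polymerase Polrmt was at -0.78 (edgeR adjusted p = 0.00392) and Rnaseh1 at -0.96 (edgeR adjusted p = 0.00177). Of 14 translation factors 1 rose (7.14%) and 2 fell (14.3%; median 0.09), shares near those of all genes. The 2 that fell were the initiation factor Mtif3 at -1.43 and Taco1, an activator of cytochrome oxidase translation, at -1.27 (edgeR adjusted p = 0.000142 and 0.000372). Without UV replicate 3, 2 of the 12 genes fell. Of the translation factors 5 fell with library totals and 4 without UV replicate 1, and none rose in either fit or without UV replicate 3.

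Ribosomal proteins of mitochondria that carry other symbols gave 4 higher and 0 lower of 7 (median 0.54). They were Mrp63, Aurkaip1, Chchd1 and Dap3, at log2 fold changes of 0.67, 0.58, 0.56 and 0.54 (edgeR adjusted p = 0.00905, 0.0265, 0.0342 and 0.0399). Of the 7, 2 rose and 2 fell with library totals, 2 rose without UV replicate 2, and 0 rose without UV replicate 3. Cytosolic ribosomal proteins gave 72 higher and 0 lower of 78 (median 0.99), and complex I genes 29 higher and 1 lower of 41 (median 0.73). The complex I list takes every symbol that begins with Nduf, so subunits were not separated from assembly factors. With library totals the medians of these 2 lists were 0.77 and 0.52, against -0.059 for the mitochondrial ribosomal protein genes. Without UV replicate 1 they were 1.01 and 0.68, against 0.028. Without UV replicate 3, 57 cytosolic ribosomal proteins and 14 complex I genes rose. Differences between the lists were not tested.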

How the data were processed

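Members, lists and naming rules were chosen with earlier results of these data known. The authors deposited unscaled whole-number read counts for each gene of each RNA library. Per the file headers, the promoter tables hold read counts per pooled condition and log2 enrichment values, which the authors deposited and which were recomputed from the reads. The authors' deposited RNA comparison, with p-values and log2 fold changes, was only set beside the results. Tools named in the submitters' processing notes, without roles, are TopHat, Bowtie 0.12.9, MACS2 and DESeq2, with build mm9. The labels list the RNA libraries as genomic DNA, while the count files hold values per gene and were taken as RNA.

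The RNA fit used R 4.3.3 and edgeR 4.0.16: filterByExpr, TMM, the quasi-likelihood F test and Benjamini-Hochberg adjustment over 14925 genes at 0.05, without a replicate block. The SE is the log2 fold change over the square root of F. The procedure was tested on simulated data. Promoters were called at a log2 difference of 1. Named were up to 15 called members per direction by p, the 3 largest uncalled changes, the 3 highest mean CPM, the Mrps18 paralogs, and per chromatin assay the 3 promoters at each end of difference and enrichment. Input was scaled by 0.528 in UV and 0.657 in untreated FAIRE, and by 0.712 and 0.706 for H3K27ac. RefSeq tables (GRCm38.p6) gave promoter sequences for 67 of 76 members, and their coordinates were not joined to mm9 tables. No promoter was matched for Mrpl4, Mrpl13, Mrpl15, Mrpl19, Mrpl38, Mrpl54, Mrps28, Mrps34 and Mrps35. Peak lists were not used, nor were 8 columns of an inhibitor condition that no sample label matches. There were 13 RNA and 5 promoter alternatives.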

Additional observations from a re-analysis of the deposited data

How the results depend on the processing

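The main RNA counts were 23 members higher and 6 lower. The higher count was 15 with DESeq2 size factors, 14 with library totals, 10 with the DESeq2 Wald test (1.42.0), 9 with no low-count filter, 27 with at least 1 CPM in 3 libraries and 0 where a log2 fold change of at least 1 was also required. The shares of all genes that rose in these 6 settings were 7.30%, 6.06%, 4.89%, 4.19%, 12.2% and 1.81%. Those of the members were 19.7%, 18.4%, 13.2%, 11.8%, 35.5% and 0%. The lower count was 21 with library totals (27.6%, against 25.1% of all genes) and 3 with that size rule (3.95%, against 5.37%). The members' median was -0.059 with library totals. Leaving out 1 library at a time gave 4 to 32 higher, 3 to 12 lower and medians of 0.028 to 0.38. As shares, 5.26% to 42.1% of the members and 3.75% to 12.5% of all genes rose. The shares that fell were 3.95% to 15.8% of the members and 7.31% to 18.3% of all genes. Counts of all genes, 1149 higher and 1854 lower in the main fit, were 905 and 3739 with library totals, 791 and 1508 with no filter, 270 and 801 with the size rule, and 585 and 1139 without UV replicate 3. The higher count was 1796 without untreated replicate 1 and 1941 without untreated replicate 2. The lower count was 2849 without UV replicate 1 and 1168 without untreated replicate 2. Mrps31 was not called by the DESeq2 Wald test (adjusted p = 0.0977) or with no filter (adjusted p = 0.0984).

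The replicate numbers did not pair the libraries. Deviations of same-numbered libraries correlated at 0.15, -0.58 and 0.50, and UV replicate 3 alone correlated best with its own number. With the replicate block, 21 members were higher (27.6%) and 8 lower (10.5%), the 2 further lower ones being Mrpl12 and Mrpl41. Of all genes 8.55% rose and 13.8% fell in that fit.

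Values near 0 changed sign. Mrpl51 was at 0.0051 with DESeq2 size factors, 0.020 with the Wald test and -0.14 to 0.17 with 1 library left out. Mrps18b was at -0.18 with library totals and -0.12 to 0.23 with 1 library left out. At a threshold of 0.58, 6 of the 76 members lost FAIRE, against 14.2% of all promoters. At that threshold 10 members gained and 5 lost H3K27ac, against 8.72% and 12.1% of all promoters. Centring on all promoters gave a FAIRE median of -0.19. Under the promoter alternatives, no difference of a named promoter moved by more than its counting error. Those of at least 1 in size kept their direction, as did all named FAIRE differences. The cause of these shifts was not tested. Depth limits FAIRE most, since the named promoters with the largest differences rest on 23 to 194 reads per condition.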

Other observations

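Among the genes around the mitochondrial ribosome that fell, promoter values did not all follow the RNA. FAIRE enrichment at Tfam was 0.33 in UV and 1.25 in untreated cells, a difference of -0.92, while H3K27ac differed by -0.15. At Ftsj2 both were lower, with differences of -0.71 for FAIRE and -0.94 for H3K27ac. At Rpusd4 FAIRE differed by -0.41 and H3K27ac by 0.57, with enrichments of 3.69 in UV and 3.12 in untreated cells. At Nrf1 the differences were -0.18 and 0.12. FAIRE was lower in UV at 21 of the 25 promoters of assembly and rRNA factors, at all 12 of the genes for transcription and replication of mitochondrial DNA and at all 14 of the translation factors. H3K27ac was higher at 18 of the 25, 7 of the 12 and 7 of the 14. It was also higher at all 7 promoters of mitochondrial ribosomal proteins with other symbols and at 11 of the 14 on the regulator list. Of promoters of all genes tested for RNA, FAIRE was lower at 76.7% and H3K27ac higher at 43.8%, and of the 50% of all promoters with the most enrichment at 89.9% and 52.3%. These values come from pooled samples and were not tested.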
